A study of Mus musculus with 12 samples.

Results

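Cholesterol and fatty acid synthesis genes were followed as a set of 30: the enzymes of the mevalonate and sterol pathways, the enzymes of fatty acid synthesis and desaturation, the proteins that control the SREBP transcription factors, and the sterol carrier Stard4. The genes were listed by known function, with no measured value in the rule, although earlier results of these data were known when the list was drawn up. An identifier in the files was matched for 29 of the 30, and all 29 passed the filter on low counts, out of 12837 genes tested and 37991 genes in the files. The levels of Hmgcs1, the enzyme that makes HMG-CoA, are not analysed here, because the symbol table matched it to no identifier; its promoter is included below.

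The study sequenced RNA from MEL, an erythroleukemia line of mouse origin whose cells mature along the red cell lineage on induction, and asked about the part that LDB1 plays between chromatin looping and transcription. LDB1 is a nuclear adaptor that joins GATA1-containing complexes on DNA and lets distant sites meet. All 12 libraries came from induced cells, in 4 groups of 3 libraries. The control group was labelled wild type, the KD group carried an LDB1 knockdown, and the delta45 and FL groups carried the same knockdown plus an LDB1 construct, lacking the part named delta 4/5 in delta45 and full-length in FL. The labels used here do not name the inducing agent, the knockdown vector, the construct promoter or whether a line was a single clone. Nor do they tell whether replicate libraries were grown as separate cultures, so each p-value reflects only how far these libraries spread, and that spread may be technical.

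Cholesterol is built from acetyl-CoA through mevalonate, farnesyl diphosphate, squalene and lanosterol, and palmitate is built from the same acetyl-CoA by acetyl-CoA carboxylase and fatty acid synthase. SREBP proteins, encoded by Srebf1 and Srebf2, are held in the endoplasmic reticulum by Scap and the Insig proteins when sterols are plentiful. When sterols fall, Scap escorts SREBPs to the Golgi, where proteases release the part that enters the nucleus and binds sterol regulatory elements, commonly beside NF-Y and Sp1 sites. Maturing erythroid cells remodel their membranes and shrink, and they need lipid supply and disposal to do so.

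Promoter sequence was available in RefSeq (GRCm38.p6, 250 bases before to 50 after each start) for 24 of the 30 genes, and 6 are shown because they carry the largest changes of both signs: the 5 with sequence whose group means spanned the widest range and that were called higher than KD in both construct lines, and Tm7sf2, which was called lower in both. Each line gives the 200 bases before the start in the direction of transcription, with NF-Y boxes (CCAAT, or ATTGG on the other strand) and GC boxes (GGGCGG or CCGCCC) in capitals. The stretches lie at chr8:64733579-64733778 (minus strand, Msmo1), chr13:8885406-8885605 (plus strand, Idi1), chr11:120824548-120824747 (minus strand, Fasn), chr5:4104698-4104897 (minus strand, Cyp51), chr8:122443423-122443622 (minus strand, Mvd) and chr19:6067851-6068050 (minus strand, Tm7sf2).
Msmo1: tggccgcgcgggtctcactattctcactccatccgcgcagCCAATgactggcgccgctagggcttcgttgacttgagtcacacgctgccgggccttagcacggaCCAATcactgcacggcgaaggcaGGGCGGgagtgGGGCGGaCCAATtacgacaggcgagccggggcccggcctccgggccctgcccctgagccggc
Idi1: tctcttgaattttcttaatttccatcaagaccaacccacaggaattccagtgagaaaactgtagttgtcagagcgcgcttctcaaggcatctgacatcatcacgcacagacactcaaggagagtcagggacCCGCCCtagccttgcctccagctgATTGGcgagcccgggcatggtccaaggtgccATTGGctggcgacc
Fasn: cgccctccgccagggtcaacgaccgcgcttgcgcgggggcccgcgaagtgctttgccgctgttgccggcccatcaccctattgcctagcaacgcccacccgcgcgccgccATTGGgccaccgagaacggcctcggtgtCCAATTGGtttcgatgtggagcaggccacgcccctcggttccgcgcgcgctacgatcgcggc
Cyp51: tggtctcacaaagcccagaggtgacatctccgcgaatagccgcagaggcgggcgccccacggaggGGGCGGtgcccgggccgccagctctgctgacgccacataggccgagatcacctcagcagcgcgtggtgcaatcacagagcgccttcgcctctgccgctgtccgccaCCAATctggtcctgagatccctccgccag
Mvd: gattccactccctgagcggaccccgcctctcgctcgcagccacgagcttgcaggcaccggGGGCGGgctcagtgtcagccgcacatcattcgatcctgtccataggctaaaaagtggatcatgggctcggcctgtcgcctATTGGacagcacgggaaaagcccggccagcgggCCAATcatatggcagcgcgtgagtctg
Tm7sf2: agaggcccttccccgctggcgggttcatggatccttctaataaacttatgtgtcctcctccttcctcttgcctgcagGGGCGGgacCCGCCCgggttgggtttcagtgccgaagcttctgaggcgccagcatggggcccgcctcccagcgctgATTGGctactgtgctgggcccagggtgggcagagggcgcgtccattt

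In the 300-base windows, an NF-Y box was present in 20 of the 24 genes (83.3%), against 41.1% of the 27025 genes in the RefSeq table and 43.3% of the 9094 tested genes with a window. A GC box was present in 20 of 24 (83.3%), against 38.2% of all genes and 69.7% of tested genes. The E-box CACGTG stood in Dhcr7, Hsd17b7, Insig1, Sc5d and Scap (20.8%, against 8.09% of all genes and 11.9% of tested genes). The sterol regulatory element core TCACNCCAC, with no mismatch allowed, was found in Hmgcs1 alone (4.17%, against 1.44% and 1.4%). Elements that depart from these letters were not searched for, so the other windows may still hold one. The GATA motifs AGATAA and TGATAA were both found in Insig2 and in no other of the 24, each 4.17%, against 12.7% and 10.4% of all genes and 8.08% and 5.45% of tested genes. All motifs were searched on both strands, and CCAAT and ATTGG overlap once in Fasn, as CCAATTGG. The NF-Y box stood in 12 of the 14 with a window that were called higher than KD in both construct lines, and in 7 of the other 9 tested. Tm7sf2 holds both boxes, as Msmo1 and Mvd do. A match describes the letters only, and no binding was measured.

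Gene reads ranged from 8783970 to 20464959 per library. Ldb1 stood at 743, 773 and 637 CPM (counts per 1e+06 reads after TMM scaling, edgeR's factor for library composition) in control and at 159, 132 and 97.1 in KD, 5.54-fold lower. It returned to 750, 781 and 764 CPM in delta45 and reached 3696, 3411 and 3210 in FL, so the construct lines differed 4.49-fold in reads counted for Ldb1 as well as in the construct. The delta45 construct lacks a part of Ldb1, so the reads per RNA molecule may differ between groups, which was not tested. KD libraries were the least alike, with correlations of log2 CPM of 0.955 to 0.977 between them against 0.984 or more within the other groups. Among control libraries 50.6 to 53.3% of tallied reads had several alignments, compared with 42.7 to 48.5% for KD, 42.3 to 47.1% for FL and 38.7 to 39.2% for delta45.

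Most of the synthesis genes rose in both construct lines over the knockdown cells. With FL against KD, 20 of the 29 were called higher (69.0%) and 4 lower (13.8%) at an edgeR adjusted p under 0.05, where 26.3% of all tested genes were called higher and 31.7% lower. With delta45 against KD, 23 were called higher (79.3%) and 3 lower (10.3%), against 29.2% and 30.7% of all tested genes. The median log2 change was 0.86 with FL and 1.01 with delta45, against -0.06 and -0.01 over all tested genes. Both comparisons use the same KD libraries. In bulk RNA, fewer cells of a type and less RNA per cell cannot be told apart.

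The knockdown alone gave a different picture. KD against control called 3 of 29 higher (10.3%) and 10 lower (34.5%), where 25.6% and 24.1% of all tested genes were called, with a median log2 change of -0.14 against 0.02. Against control, FL called 18 higher (62.1%) and 5 lower (17.2%), where 28.1% and 31.2% of all genes were called, and delta45 called 18 higher (62.1%) and 4 lower (13.8%), where 31.9% and 32.5% were called. The medians were 0.68 and 0.67, against -0.01 and 0.01 over all genes. In both construct lines most of the 29 were thus called above the wild type cells as well. These comparisons share the control libraries. Scaled by library totals alone, which moved the median of all tested genes by -0.22, the FL split against control was 14 higher and 8 lower. Of all tested genes 58.2% were then called, and 31.8% of these calls were higher.

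**Figure D1:**
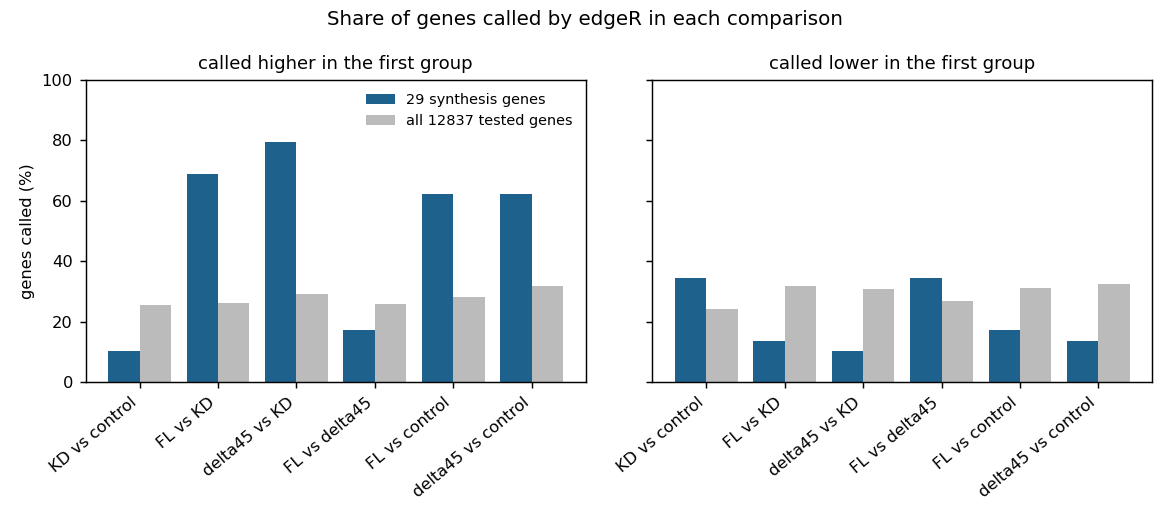
Percent of the 29 synthesis genes (blue) and of all 12837 tested genes (grey) called higher (left) or lower (right) by edgeR in the first-named group of each comparison, y axis in percent. The blue bars reach 69.0 and 79.3% for FL and delta45 against KD, where the grey bars stand at 26.3 and 29.2%.

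The delta45 group had the highest of the 4 group means for 14 of the 29 genes, FL for 10, control for 5 and KD for none. Over all tested genes these shares were 28%, 23.6%, 26.2% and 22.2%. KD had the lowest mean for 14 genes (48.3%), control for 9 (31%), FL for 5 (17.2%) and delta45 for 1 (3.45%). Over all tested genes these shares of the lowest mean were 22%, 25.6%, 25.2% and 27.2%. Together the 29 genes held 0.254 to 0.261% of gene reads for control, 0.228 to 0.318% for KD, 0.451 to 0.489% for delta45 and 0.415 to 0.449% for FL, so neither construct line overlapped control or KD. This share is weighted towards Fasn and Scd2. Their means were 1010 and 1293 CPM of a summed 4960 in FL, and 1324 and 468 of 4491 in delta45. In KD they were 474 and 700 of 2614, and in control 307 and 446 of 2530.

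**Figure D2:**
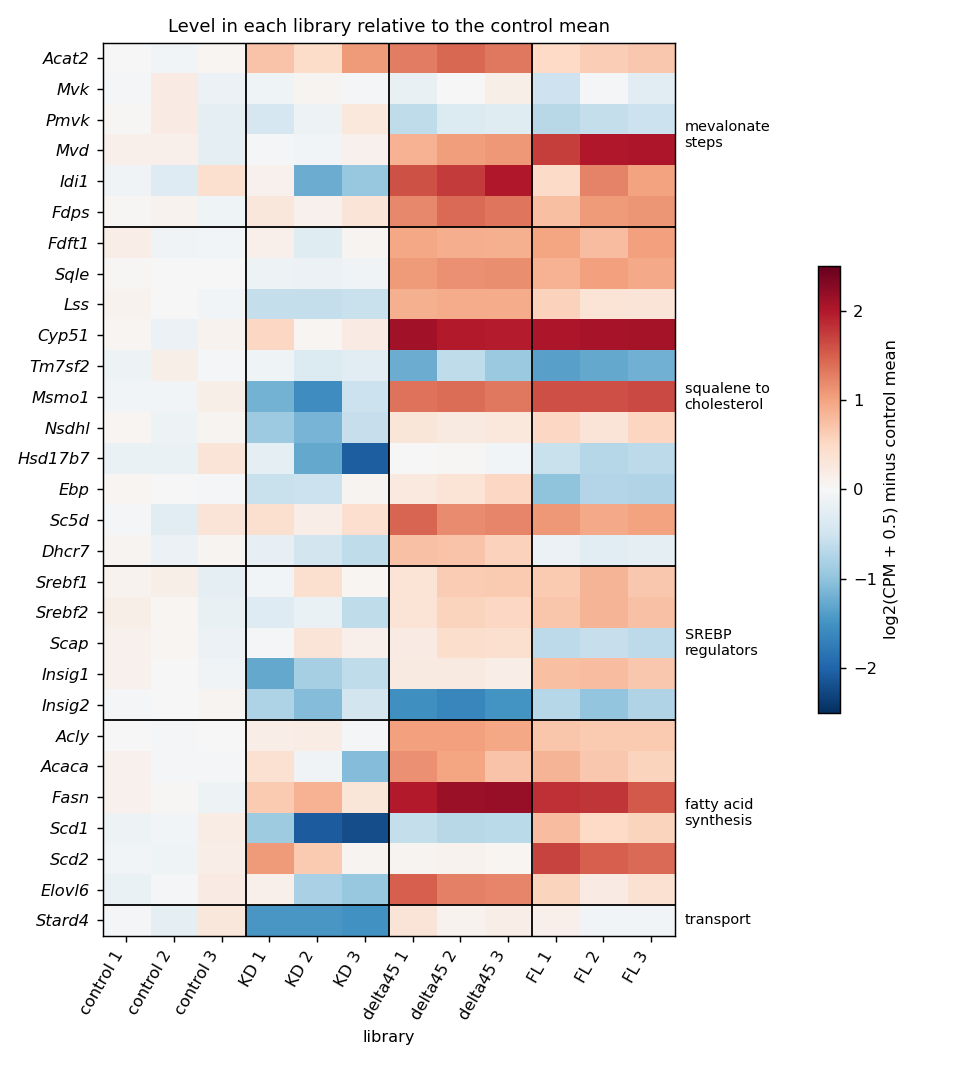
Level of each of the 29 genes (rows, grouped by role) in each of the 12 libraries (columns), as log2(CPM + 0.5) minus the control mean, red above and blue below. Most rows are red in the 3 delta45 and 3 FL libraries, while Tm7sf2, Pmvk and Insig2 are blue there.

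Of the 6 mevalonate genes, FL against KD called 3 higher (50%) and 1 lower (16.7%), where 26.3% and 31.7% of all tested genes were called, and delta45 against KD called 4 higher (66.7%) and none lower, where 29.2% and 30.7% were called. Acat2, Mvd, Idi1 and Fdps rose in at least 1 construct line, Pmvk fell with FL, and Mvk was called in no comparison. Mvd (ENSMUSG00000006517), the decarboxylase that makes isopentenyl diphosphate, stood at 48.7, 48.2 and 37.2 CPM in control, 43.0, 42.6 and 47.8 in KD, 81.2, 92.6 and 94.6 in delta45 and 148, 179 and 182 in FL. KD and control overlapped, delta45 lay above both and FL above delta45. The log2 change was 1.93 ± 0.13 (SE) with FL against KD (edgeR adjusted p = 1.2e-07), 1.01 ± 0.13 with delta45 against KD (adjusted p = 3.4e-05) and 0.92 ± 0.13 with FL against delta45 (adjusted p = 4.6e-05). Mvd was the one mevalonate gene called higher in FL than in delta45.

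Idi1 (ENSMUSG00000058258), the isomerase that makes the activated isoprene unit, was a low gene at 2.79, 2.31 and 4.11 CPM in control, 3.28, 0.977 and 1.31 in KD, 9.98, 11.3 and 13.5 in delta45 and 4.38, 7.79 and 6.47 in FL. Each delta45 library lay above every other library, and each FL library lay above every control and KD library. The log2 change was 2.57 ± 0.37 with delta45 and 1.67 ± 0.38 with FL against KD (adjusted p = 8.7e-05 and 0.0023). FL was lower than delta45 by a log2 change of -0.89 ± 0.33 (adjusted p = 0.038), a call that was lost without control replicate 1, any delta45 replicate, or FL replicate 1 or 3 (adjusted p 0.052 to 0.14). KD against control was not called (-0.69 ± 0.40, adjusted p = 0.17) but was called without KD replicate 1 (-1.44, adjusted p = 0.0055). FL was above control by 0.98 ± 0.36 (adjusted p = 0.032), and this call was lost without control replicate 1 or 2 or FL replicate 2 or 3 (adjusted p 0.081 to 0.11) and under library totals alone (0.76, adjusted p = 0.10).

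Fdps (ENSMUSG00000059743), farnesyl diphosphate synthase, stood at 19.9, 20.8 and 18.0 CPM in control, 23.9, 21.1 and 24.5 in KD, 45.2, 53.0 and 50.2 in delta45 and 33.0, 41.4 and 42.3 in FL. The order control, KD, FL, delta45 held with no overlap, although KD against control was not called (0.25 ± 0.13, adjusted p = 0.13). Fdps rose by 1.09 ± 0.13 with delta45 and 0.75 ± 0.13 with FL against KD (adjusted p = 1.5e-05 and 2.8e-04), the latter 0.48 under library totals alone. FL against delta45 was called at -0.34 ± 0.12 (adjusted p = 0.033) and lost without control replicate 3, KD replicate 2, any delta45 replicate or FL replicate 1 (adjusted p 0.050 to 0.17), while under library totals alone it was -0.62 (adjusted p = 0.0013). In GENCODE M21 gene models, of another build than the authors', 26.7% of Fdps exonic bases are shared with Gm43738 on the same strand. For Idi1, 9.22% are shared with Gm48574 on the other strand.

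Acat2 (ENSMUSG00000023832), the cytosolic thiolase that joins acetyl-CoA units at the entry of the pathway, rose on knockdown. It stood at 24.9, 23.5 and 25.6 CPM in control, 40.8, 34.1 and 52.0 in KD, 60.2, 67.4 and 62.4 in delta45 and 34.8, 38.3 and 39.8 in FL. All 9 other libraries lay above control. KD against control was 0.78 ± 0.14 (adjusted p = 5.7e-04), delta45 against KD 0.58 ± 0.14 (adjusted p = 0.0028) and FL against delta45 -0.75 ± 0.14 (adjusted p = 5.0e-04), while FL and KD overlapped (-0.17 ± 0.14, adjusted p = 0.31). Mvk, mevalonate kinase, had group means of 19.5 to 23.7 CPM. Pmvk, the next kinase, fell with FL, from 63.3 ± 15.4 (SD, n = 3) in KD and 66.8 ± 9.96 in control to 43.3 ± 2.47. The FL call against KD (-0.54 ± 0.17, adjusted p = 0.015) was lost without KD replicate 3 or FL replicate 1 (adjusted p 0.071 and 0.056; -0.34 without KD replicate 3) and in a fit of the 6 libraries compared (adjusted p = 0.050).

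Among the 11 genes from squalene to cholesterol, delta45 against KD called 10 higher (90.9%) and 1 lower (9.09%), where 29.2% and 30.7% of all tested genes were called. FL against KD called 7 higher (63.6%) and 2 lower (18.2%), where 26.3% and 31.7% were called. KD against control called none higher and 5 lower (45.5%), where 25.6% and 24.1% were called. FL against control called 7 higher (63.6%) and 2 lower (18.2%), where 28.1% and 31.2% were called. Delta45 against control called 7 higher (63.6%) and 1 lower (9.09%), where 31.9% and 32.5% were called. Summed over the 11, the level was 487 ± 16.8 CPM in control, 405 ± 31.6 in KD, 969 ± 3.52 in delta45 and 852 ± 11.9 in FL (SD, n = 3), with no overlap between any 2 groups. This sum is weighted towards Sqle, squalene epoxidase, at 166 ± 2.64 CPM in control and 363 ± 12.6 in delta45.

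Msmo1 (ENSMUSG00000031604), the oxidase that removes methyl groups from lanosterol products, had the widest span of the 29. It stood at 34.8, 34.6 and 40.2 CPM in control, 15.8, 12.1 and 25.0 in KD, 94.8, 96.6 and 91.4 in delta45 and 112, 112 and 115 in FL. The 4 groups did not overlap. Msmo1 fell by 1.05 ± 0.19 on the log2 scale on knockdown (adjusted p = 6.3e-04) and stood 6.41-fold above KD in FL (2.68 ± 0.20, adjusted p = 2.3e-07) and 5.34-fold above it in delta45 (2.42 ± 0.20, adjusted p = 7.9e-07). FL against delta45 was not called in the fit over 12 libraries (0.26 ± 0.18, adjusted p = 0.24), and it was called without KD replicate 3 (0.26, adjusted p = 0.042) and in a fit of the 6 libraries of the 2 groups alone (0.26, adjusted p = 0.0057). Under library totals alone it was -0.01.

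Cyp51 (ENSMUSG00000001467), the lanosterol demethylase, behaved otherwise on knockdown, at 35.2, 30.7 and 35.8 CPM in control and 48.4, 35.1 and 39.2 in KD. It stood at 147, 135 and 134 CPM in delta45 and 138, 143 and 145 in FL. The construct lines overlapped each other and lay far above the other 6 libraries. The change against control was 4.19-fold in FL (adjusted p = 2.7e-08) and 4.08-fold in delta45 (adjusted p = 3.3e-08), and FL against delta45 was 0.04 ± 0.12 on the log2 scale, or -0.24 under library totals alone. KD against control was not called (0.27 ± 0.12, adjusted p = 0.079) but was called without KD replicate 2 (0.37, adjusted p = 0.027).

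Lss (ENSMUSG00000033105), which folds squalene epoxide into lanosterol, stood at 40.6, 37.7 and 36.2 CPM in control, 25.2, 25.1 and 25.9 in KD, 71.4, 72.7 and 73.4 in delta45 and 56.8, 48.7 and 48.1 in FL. The order KD, control, FL, delta45 held with no overlap. All 6 comparisons were called, FL against control only with composition scaling (0.42 ± 0.10, adjusted p = 0.0028, against 0.20, adjusted p = 0.10, under library totals alone). Among the others were KD against control at -0.59 ± 0.10 (adjusted p = 4.2e-04) and FL against delta45 at -0.50 ± 0.10 (adjusted p = 8.5e-04, and -0.78 under library totals alone). Nsdhl (ENSMUSG00000031349), a decarboxylating sterol dehydrogenase, stood at 45.1, 39.8 and 45.8 CPM in control, 22.9, 19.1 and 28.9 in KD, 53.9, 51.1 and 52.6 in delta45 and 62.1, 54.3 and 63.7 in FL. Nsdhl was lowest in KD, and the 4 groups did not overlap. FL against delta45 was not called (0.19 ± 0.14, adjusted p = 0.25). Delta45 against control was not called either (0.27 ± 0.14, adjusted p = 0.10), but was under library totals alone (0.32, adjusted p = 0.043). FL against control was called (0.46 ± 0.14, adjusted p = 0.011), and this was lost under library totals alone (0.24, adjusted p = 0.13). Nsdhl fell by 0.88 ± 0.14 on the log2 scale on knockdown (adjusted p = 2.1e-04) and was 2.54-fold and 2.22-fold above KD in FL and delta45 (adjusted p = 4.7e-06 and 2.1e-05).

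Tm7sf2 (ENSMUSG00000024799), a sterol reductase that acts after Cyp51, was the sterol gene that went down in both construct lines. It stood at 19.7, 24.0 and 21.0 CPM in control, 19.9, 16.8 and 17.7 in KD, 8.86, 13.7 and 11.1 in delta45 and 8.13, 8.60 and 9.0 in FL. Control and KD overlapped, FL and delta45 overlapped, and the pairs were apart. Tm7sf2 fell by 1.08 ± 0.17 with FL and by 0.70 ± 0.17 with delta45 against KD on the log2 scale (adjusted p = 1.5e-04 and 0.0028). In the same gene models 12.1% of its exonic bases overlap Vps51. Lbr, which carries the same reductase activity and was singled out after its values were seen, had means of 211 ± 12.6 CPM in control, 177 ± 22.6 in KD, 270 ± 8.39 in delta45 and 162 ± 11 in FL, and was called higher with delta45 against KD (0.61 ± 0.11, adjusted p = 4.0e-04) and not with FL (-0.13 ± 0.11, adjusted p = 0.31).

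Ebp and Dhcr7, which act late in the pathway, were called lower in FL than in delta45. Ebp, the sterol isomerase, had means of 55.8 ± 2.0 CPM in control, 45.0 ± 11.9 in KD, 72.5 ± 7.11 in delta45 and 31.3 ± 3.18 in FL (SD, n = 3). It was 2.32-fold lower in FL than in delta45 (-1.21 ± 0.16, adjusted p = 3.4e-05), the largest difference among sterol genes. Its fall in FL against KD (-0.52 ± 0.16, adjusted p = 0.014) was lost without KD replicate 3 or FL replicate 1 (adjusted p 0.059 and 0.064; -0.29 without KD replicate 3) and in a fit of the 6 libraries compared (adjusted p = 0.076), while FL against control held at -0.83 ± 0.16 (adjusted p = 6.7e-04). Dhcr7, the last reductase, had means of 38.1, 28.1, 60.8 and 32.6 CPM in the same order, and was 1.87-fold lower in FL than in delta45 (adjusted p = 4.3e-05). Sqle, Fdft1 and Sc5d stood 1.62 to 2.37-fold above KD in the construct lines, all called; Sc5d in FL went from 0.69 to 0.42 under library totals alone. Fdft1, squalene synthase, shares 18.3% of its exonic bases with Ctsb on the other strand, and the library kit does not mark strand.

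Hsd17b7, a sterol ketone reductase, was scarce and uneven. Its KD libraries stood at 8.65, 4.02 and 2.10 CPM, against 9.22, 9.23 and 13.2 in control. The call of KD against control (-1.08 ± 0.35, adjusted p = 0.022) was lost without control replicate 3 or KD replicate 2 (adjusted p 0.090 and 0.073), and that of delta45 against KD (1.04 ± 0.35, adjusted p = 0.021) without KD replicate 2 (0.94, adjusted p = 0.064). Without KD replicate 1 they were -1.83 and 1.81, without KD replicate 3 -0.71 and 0.67, and in fits of the 6 libraries compared neither was called (adjusted p 0.090 and 0.083). FL against KD, not called (0.37 ± 0.36, adjusted p = 0.40), was called without KD replicate 1 (1.18, adjusted p = 0.0021).

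**Figure D3:**
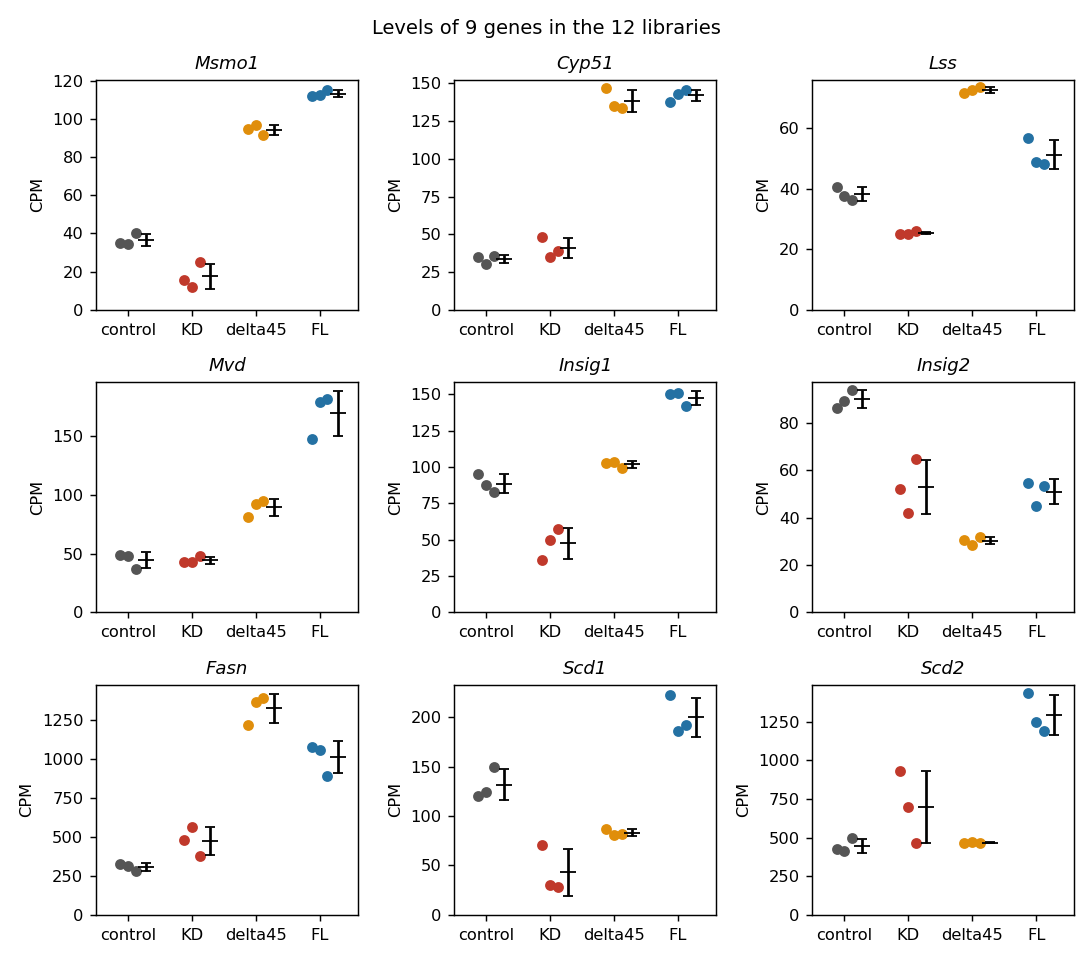
CPM (y axis, from 0) of 9 genes in each library, points by group, with black bars for the mean and SD of 3 libraries. Msmo1, Cyp51 and Fasn are high in both construct lines, Mvd and Scd2 highest in FL, and Insig2 highest in control.

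Among the 5 regulators, FL against KD called 3 higher (60%) and 1 lower (20%), where 26.3% and 31.7% of all tested genes were called. Delta45 against KD called 3 higher (60%) and 1 lower (20%), where 29.2% and 30.7% were called. Both SREBP genes and Insig1 were the higher ones in each comparison, while Scap was lower with FL and Insig2 with delta45. Srebf2 (ENSMUSG00000022463), whose product drives the sterol enzymes, stood at 193, 178 and 151 CPM in control, 138, 154 and 111 in KD, 219, 254 and 247 in delta45 and 282, 310 and 289 in FL. KD overlapped control by 1 library, and both construct lines lay above all 6. Srebf2 was above KD by 1.13 ± 0.13 with FL and 0.84 ± 0.13 with delta45 (adjusted p = 1.2e-05 and 1.5e-04). Its fall on knockdown (-0.37 ± 0.13, adjusted p = 0.031) was lost without control replicate 1 or 2 or KD replicate 3 (adjusted p 0.077 to 0.12), under library totals alone (adjusted p = 0.079) and in a fit of the 6 libraries compared (adjusted p = 0.11). FL against delta45 was not called (0.29 ± 0.13, adjusted p = 0.075) but was called without control replicate 3 or any one KD replicate (adjusted p 0.028 to 0.040).

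Srebf1 (ENSMUSG00000020538), whose product acts mainly on fatty acid genes, stood at 128, 133 and 101 CPM in control, 115, 157 and 124 in KD, 151, 185 and 188 in delta45 and 188, 215 and 192 in FL. KD overlapped control and reached into delta45, and FL lay above all the rest, barely so for delta45. FL against KD was 0.59 ± 0.14 (adjusted p = 0.0036), lost under library totals alone (0.32, adjusted p = 0.072). Delta45 against KD was 0.40 ± 0.14 (adjusted p = 0.027), a call lost without KD replicate 1 or 3 or delta45 replicate 2 or 3 (adjusted p 0.065 to 0.074) or in a fit of the 6 libraries compared (adjusted p = 0.062).

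Insig1 (ENSMUSG00000045294), which holds the Scap and SREBP complex back and is itself an SREBP target, stood at 95.5, 87.6 and 82.9 CPM in control, 36.0, 49.6 and 57.1 in KD, 103, 103 and 99.2 in delta45 and 150, 151 and 142 in FL. The 4 groups did not overlap. Insig1 fell by 0.90 ± 0.14 on the log2 scale on knockdown (adjusted p = 1.8e-04) and was 3.11-fold and 2.14-fold above KD in FL and delta45 (adjusted p = 8.9e-07 and 3.1e-05). FL was above delta45 by 0.54 ± 0.14 (adjusted p = 0.0051), which was lost when libraries were scaled by their totals alone (0.26, adjusted p = 0.083). Delta45 against control was not called (0.20 ± 0.14, adjusted p = 0.22) but was called without KD replicate 1 (0.22, adjusted p = 0.047).

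Insig2 (ENSMUSG00000003721), the second retention protein, fell on knockdown as Insig1 did but was not called higher than KD in either construct line. It stood at 86.5, 89.5 and 94.0 CPM in control, 52.2, 41.9 and 64.9 in KD, 30.7, 28.6 and 31.8 in delta45 and 54.7, 45.0 and 53.3 in FL. Control was above and delta45 below every other library, and FL and KD overlapped (-0.06 ± 0.14, adjusted p = 0.76). KD against control was -0.76 ± 0.14 (adjusted p = 7.1e-04) and FL against delta45 0.75 ± 0.14 (adjusted p = 7.2e-04, and 0.47 with adjusted p = 0.011 under library totals alone). Delta45 was 2.96-fold lower than control (-1.57 ± 0.15, adjusted p = 1.1e-06) and 1.74-fold lower than KD (adjusted p = 4.3e-04). Scap (ENSMUSG00000032485), the escort, stood at 121, 117 and 102 CPM in control, 111, 142 and 123 in KD, 129, 153 and 148 in delta45 and 71.8, 75.1 and 71.3 in FL. FL was below every other library, at a log2 change of -0.78 ± 0.12 against KD (adjusted p = 9.4e-05) and -0.98 ± 0.12 against delta45 (adjusted p = 1.2e-05). The delta45 rise over control (0.35 ± 0.12, adjusted p = 0.018) was lost without control replicate 3 or delta45 replicate 2 (adjusted p 0.059 and 0.058). In the GENCODE M21 gene models 13.2% of Scap exonic bases are shared with 5830462I19Rik on the other strand.

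All 6 fatty acid genes were called higher with FL against KD, and 5 (83.3%) with delta45 against KD, where Scd2 was called lower, beside 26.3 and 29.2% of all tested genes called higher. Fasn (ENSMUSG00000025153), the enzyme that assembles palmitate, stood at 330, 311 and 279 CPM in control, 481, 561 and 379 in KD, 1215, 1368 and 1390 in delta45 and 1080, 1058 and 892 in FL. The 4 groups did not overlap, and control was the lowest. Fasn rose on knockdown by 0.63 ± 0.14 (adjusted p = 0.0025) and again with delta45 (1.48 ± 0.14, adjusted p = 3.3e-06) and FL (1.09 ± 0.14, adjusted p = 3.0e-05) against KD. FL against delta45 was called at -0.39 ± 0.14 (adjusted p = 0.032), and lost without control replicate 3, any delta45 replicate or FL replicate 2 or 3 (adjusted p 0.051 to 0.13), while under library totals alone it was -0.67 (adjusted p = 0.0021).

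Acly, which supplies cytosolic acetyl-CoA, had means of 203 ± 4.41 CPM in control, 218 ± 16.9 in KD, 406 ± 7.22 in delta45 and 324 ± 4.92 in FL (SD, n = 3). It was not called on knockdown (0.11 ± 0.09, adjusted p = 0.32) and was 1.86-fold and 1.48-fold above KD in delta45 and FL (adjusted p = 4.0e-06 and 1.3e-04). The FL log2 change of 0.57 fell to 0.30 (adjusted p = 0.018) under library totals alone. Acaca, the carboxylase that makes malonyl-CoA, had KD libraries at 18.6, 13.2 and 6.39 CPM and construct libraries between 21.0 and 31.8. Its FL call against KD (0.86 ± 0.27, adjusted p = 0.017) was lost without FL replicate 1 (0.78, adjusted p = 0.057), under library totals alone (0.57, adjusted p = 0.11) and in a fit of the 6 libraries compared (adjusted p = 0.052). Leaving out KD replicate 1 gave 1.32, and leaving out KD replicate 3 gave 0.53. Its FL call against control (0.71 ± 0.27, adjusted p = 0.038) was lost without any one of the 6 libraries compared (adjusted p 0.053 to 0.11) and under library totals alone (0.49, adjusted p = 0.17).

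Elovl6 (ENSMUSG00000041220), which lengthens palmitate, stood at 25.0, 27.2 and 32.7 CPM in control, 30.9, 15.7 and 14.3 in KD, 80.2, 68.2 and 65.9 in delta45 and 41.8, 32.4 and 36.5 in FL. Delta45 lay well above all others, and FL overlapped control. Delta45 against KD was 1.80 ± 0.24 (adjusted p = 4.5e-05), FL against KD 0.85 ± 0.24 (adjusted p = 0.0086; 0.56 with adjusted p = 0.078 under library totals alone, and 1.36 without KD replicate 1) and FL against delta45 -0.95 ± 0.23 (adjusted p = 0.0038). KD against control was not called (-0.47 ± 0.24, adjusted p = 0.12) but was called without KD replicate 1 (-0.93, adjusted p = 3.2e-04). FL against control (0.38 ± 0.24, adjusted p = 0.18) was likewise called without KD replicate 1 (0.44, adjusted p = 0.012).

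The stearoyl-CoA desaturases, which make oleate and palmitoleate, parted on knockdown. Scd1 (ENSMUSG00000037071) stood at 120, 125 and 150 CPM in control, 70.6, 30.6 and 27.8 in KD, 86.8, 80.4 and 82.3 in delta45 and 223, 186 and 192 in FL. Scd2 (ENSMUSG00000025203) stood at 423, 415 and 501 CPM in control, 933, 699 and 468 in KD, 467, 474 and 463 in delta45 and 1437, 1249 and 1192 in FL. The 4 groups of Scd1 did not overlap, and for Scd2 KD overlapped control and delta45 while FL lay above all. KD against control was -1.61 ± 0.27 for Scd1 (adjusted p = 3.2e-04) and 0.65 ± 0.19 for Scd2 (adjusted p = 0.013; 0.38 without KD replicate 1, and not called in a fit of the 6 libraries compared, adjusted p = 0.061). Scd1 was above KD in delta45 by 0.94 ± 0.27 (adjusted p = 0.0085), which was 1.54 without KD replicate 1 and not called in a fit of the 6 libraries compared (adjusted p = 0.051). Both were higher in FL than in delta45, Scd1 by 2.41-fold (adjusted p = 0.0013) and Scd2 by 2.76-fold (adjusted p = 3.0e-05).

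The lower Scd2 call with delta45 against KD (-0.58 ± 0.19, adjusted p = 0.018) was lost without KD replicate 1 (-0.29, adjusted p = 0.10) or any delta45 replicate (adjusted p 0.054 to 0.063), or in a fit of the 6 libraries compared (adjusted p = 0.066). Scd1 was called lower in delta45 than in control (-0.66 ± 0.26, adjusted p = 0.041), which was lost without any one control, delta45 or FL replicate (adjusted p 0.050 to 0.13) and under library totals alone (adjusted p = 0.077). Scd1 in FL against control was not called (0.60 ± 0.26, adjusted p = 0.062) but was called without any one KD replicate (adjusted p 1.1e-04 to 0.033). The 2 desaturases are close copies, and reads aligned to both would be tallied as aligned to several places and counted for neither. The fatty acid genes were the most uneven in KD: their mean log2 level relative to control was 0.25, -0.22 and -0.66 in the 3 KD libraries, against 0.75 to 0.86 in delta45 and 0.85 to 1.07 in FL.

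Stard4 (ENSMUSG00000024378), a carrier that moves sterol between membranes, followed the sterol enzymes against KD and the wild type level otherwise. It stood at 139, 120 and 173 CPM in control, 51.9, 52.0 and 49.7 in KD, 178, 152 and 161 in delta45 and 156, 136 and 136 in FL. KD lay far below the other 9 libraries, which overlapped one another. It fell 2.82-fold on knockdown (-1.49 ± 0.13, adjusted p = 2.1e-06) and was 2.79-fold and 3.19-fold above KD in FL and delta45 (adjusted p = 1.1e-06 and 6.1e-07). FL against control was -0.02 ± 0.13 (adjusted p = 0.92), and delta45 against control, not called (0.18 ± 0.13, adjusted p = 0.23), was called without control replicate 3 (0.35, adjusted p = 0.021).

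The construct lines were then compared directly. FL against delta45 called 5 of the 29 higher (17.2%) and 10 lower (34.5%), where 25.8% and 27.0% of all tested genes were called, and the median log2 change was -0.27 against -0.01 over all genes. The 5 higher in FL were Mvd, Insig1, Insig2, Scd1 and Scd2. The 10 lower were Acat2, Idi1, Fdps, Lss, Ebp, Dhcr7, Scap, Acly, Fasn and Elovl6. Scaled by library totals alone, which moved the median of all genes by -0.28, the split was 4 higher and 17 lower. Of all tested genes 55.9% were then called, and 29.2% of these calls were higher. In the same libraries the summed level of 10 erythroid markers was 33110 to 40230 CPM in FL and 5162 to 5346 in delta45, and Ldb1 reads differed as given above. The part of either in these differences was not tested.

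**Figure D4:**
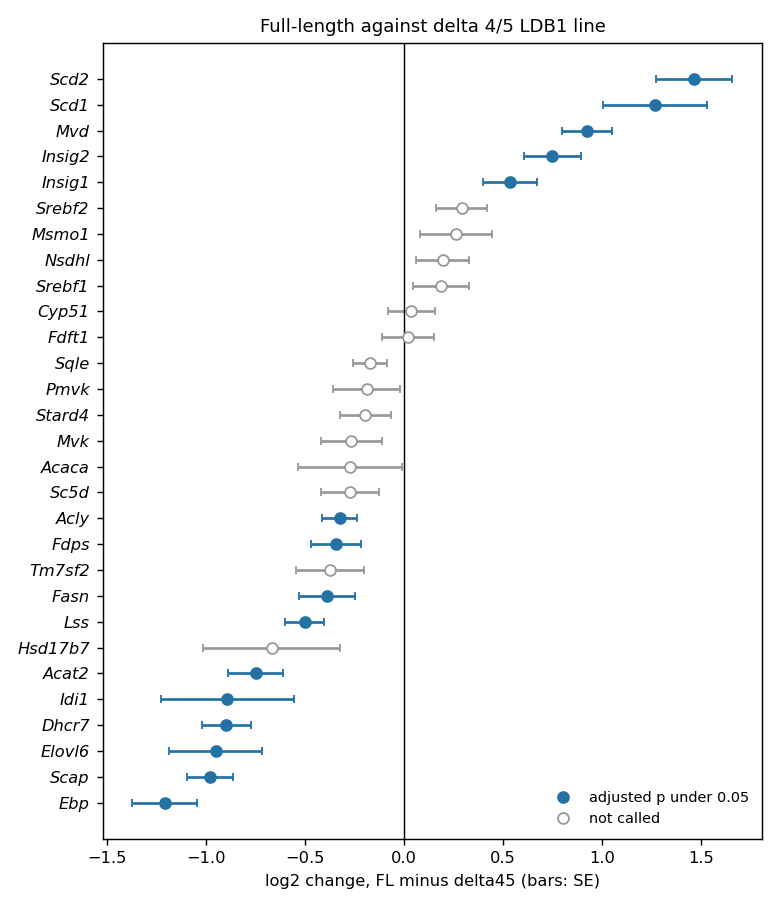
Log2 change of each of the 29 genes between FL and delta45 (x axis, FL minus delta45), points with bars of 1 SE, ordered by size. Scd2 is at the upper end at 1.47 and Ebp at the lower end at -1.21.

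Neighbouring pathways gave other counts. Of 19 tested genes of the isoprenoid branches and sterol partner enzymes, 2 were called higher (10.5%) and 10 lower (52.6%) with FL against KD, and 5 (26.3%) and 7 (36.8%) with delta45 against KD, beside 26.3 and 31.7%, and 29.2 and 30.7%, of all tested genes. The medians were -0.26 and -0.004, against -0.06 and -0.01 over all genes. KD against control called 8 higher and 2 lower (42.1 and 10.5%, beside 25.6 and 24.1% of all genes). Pdss1, which makes the ubiquinone tail, had 3.44, 2.44 and 4.18 CPM in FL and 23.3, 17.2 and 17.4 in delta45, so the groups lay far apart, with control at 5.79 to 7.29 and KD at 10.8 to 13.1. Its partner Pdss2 was called higher with FL against KD (0.68 ± 0.13, adjusted p = 7.7e-04). Dolk, dolichol kinase, rose 2.73-fold on knockdown (adjusted p = 2.2e-05), and Fntb, a farnesyltransferase subunit, was 1.85-fold and 1.72-fold lower in FL and delta45 than in KD (adjusted p = 8.5e-06 and 2.8e-05).

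Of 25 tested genes of sterol sensing, uptake, storage and export, 9 were called higher (36.0%) and 7 lower (28%) with FL against KD, and 5 (20.0%) and 13 (52.0%) with delta45 against KD, beside the same shares of all genes as above. The medians were 0.13 and -0.41. KD against control called 5 higher and 7 lower (20.0 and 28%, beside 25.6 and 24.1% of all genes), and FL against delta45 13 and 5 (52.0 and 20.0%, beside 25.8 and 27.0%). Lipa, the lysosomal lipase that frees cholesterol from esters, had means of 45.8 CPM in control, 21.5 in KD, 3.29 in delta45 and 11.1 in FL, a 13.8-fold fall from control to delta45 (-3.79 ± 0.24, adjusted p = 4.4e-08). Soat1, which esterifies cholesterol, was lower than KD in both lines (-1.08 ± 0.16 with FL and -0.58 ± 0.15 with delta45, adjusted p = 8.6e-05 and 0.0059). Mbtps2, a protease that releases SREBPs, was 3.36-fold above KD in FL (adjusted p = 3.7e-04), where delta45 was not called (0.74 ± 0.31, adjusted p = 0.051). Mylip, a ubiquitin ligase for lipoprotein receptors, stood at 136, 136 and 137 CPM in FL and between 39.5 and 51.9 in the other 9 libraries.

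Of 30 tested genes of fatty acid activation, elongation and glyceride synthesis, 9 were called higher (30%) and 10 lower (33.3%) with FL against KD, and 8 (26.7%) and 14 (46.7%) with delta45 against KD. The FL shares lay close to the 26.3 and 31.7% of all genes, and the delta45 shares stood beside 29.2 and 30.7%. The medians were -0.09 and -0.27. KD against control called 10 higher and 9 lower (33.3 and 30%, beside 25.6 and 24.1% of all genes). Acacb, the carboxylase form tied to mitochondria, went opposite to Acaca, at 29.5, 31.6 and 33.1 CPM in control, 17.6, 19.5 and 11 in KD, 2.30, 3.13 and 2.65 in delta45 and 4.48, 3.49 and 3.94 in FL. It was 4.02-fold and 5.97-fold lower than KD in FL and delta45 (adjusted p = 6.3e-06 and 1.2e-06). Fads3, of the fatty acid desaturase family, stood at 717, 767 and 755 CPM in FL and between 119 and 253 in the other 9. Elovl7, an elongase, fell 3.54-fold on knockdown (adjusted p = 0.0032), and Acsl6, an acyl-CoA synthetase, stood at 5.68, 7.02 and 6.88 CPM in control and at or below 1.53 in every other library.

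Markers of other cell types were checked in the same libraries. Adipocyte markers summed to at most 1.35 CPM in any library, with Fabp4, Lep and Cidec at 0 reads throughout, and hepatocyte markers to at most 1.95 CPM, with Ttr, Serpina1a and Cyp7a1 at 0 reads. Macrophage markers summed to 4.77 to 15.8 CPM. Stromal and endothelial markers summed to 37.9 to 42.3 CPM for control, 22.0 to 51.5 for KD, 11.8 to 13.5 for delta45 and 22.4 to 29.7 for FL, mostly Pdgfrb, with Col1a2 and Dcn at 0 reads. The 10 erythroid markers summed to 12170 to 13040 CPM in control and 2989 to 5514 in KD. The delta45 sum of 5162 to 5346 lay inside the KD range, and the FL sum of 33110 to 40230 above all. Single markers parted within that sum. With delta45 against KD, 3 of the 10 were called higher and 4 lower, from -1.89 for Slc4a1 to 1.90 for Tfrc. With delta45 against control, 1 was called higher and 7 lower. With FL against KD, 7 were called higher and none lower.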

How the data were processed

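RNA of induced MEL cells was measured in 12 libraries, 4 groups of 3, made, per the labels, after RNeasy isolation with TruSeq RNA chemistry (V2), a kit that leaves strand unmarked. The deposited values are whole-number counts of reads per Ensembl gene that the authors did not normalize. Per the submitters' processing notes the build is mm9, and DESeq 1.10.1, HTSeq 0.5.3p9, TopHat 1.4.1 and cutadapt 1.1 are named. Settings, order of use and annotation: not given in the sources used here. Closing rows that name no gene were left out of library sizes; reads aligned to several places were 38.69 to 53.31% of tallied reads, ambiguous reads 1.33 to 1.809% and reads outside genes 2.117 to 6.133%.

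Symbols were matched for 32919 of 37991 identifiers. The counts were filtered with filterByExpr (minimum count 10, total 15), given TMM factors and tested by quasi-likelihood in edgeR 4.0.16 (R 4.3.3), 1 mean per group and all 12 libraries in the fit. Calls are at a Benjamini-Hochberg adjusted p under 0.05 over the 12837 genes of each of 6 comparisons, and every adjusted p is of this kind. Log2 changes are first-named minus second-named group, ± SE. An exact permutation test of 3 against 3 cannot give a two-sided p under 0.1. The procedure was tested on simulated counts of 12288 genes for KD against control, in a fit of the 6 libraries compared. Of 50 genes changed at each fold, 6% were recovered at a fold of 1.5, 42% at 2, 90% at 4 and 96% at 8. There were 8 false calls. In the measured counts the same fit called 4606 of 12288 genes (37.5%), many more than were changed in the simulation. How often the reported fit over 12 libraries recovers such folds was not tested. A gene not called may still have changed by a fold of 1.5 or 2. Gene reads of 8783970 to 20464959 per library set the counting error, relatively larger for genes at a few CPM, such as Idi1 and Hsd17b7.

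The members and all lists were chosen with earlier results of these data known. Values of every library are given for the 5 regulators and the 14 other genes with the widest span of group mean log2 CPM; from each neighbouring list, the 4 of widest span at 5 CPM or more in a group are named. Promoters are RefSeq windows and draw on a build other than the authors', as do the exon overlaps. No 2 libraries agreed within counting noise. Alternatives were other scalings, filters, DESeq2 1.42.0, only the libraries compared, a test against a fold of 1.5, the replicate number as a block, and each library left out. Figures were drawn with matplotlib 3.10.9.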

Additional observations from a re-analysis of the deposited data

How the results depend on the processing

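No called result changed sign under any alternative. Values that were called neither as reported nor under the alternative changed sign 50 times, 11 of them under library totals alone, among these Fdft1, Cyp51, Msmo1, Nsdhl and Srebf1 in FL against delta45 (-0.26, -0.24, -0.01, -0.08 and -0.09). Of the single-gene results, recomputed under 21 alternatives, 3451 kept their side of the threshold, 143 lost a call and 60 gained one. Against a fold of 1.5 the counts of genes higher and lower were 0 and 5 for KD against control, 13 and 1 for FL against KD, 18 and 0 for delta45 against KD, 3 and 3 for FL against delta45, 9 and 1 for FL against control, and 13 and 2 for delta45 against control, since a larger change is asked for. In the same order, 18.6, 27.3, 27.3, 25.2, 29.9 and 35.8% of all tested genes were called against that fold. Scaled by library totals alone, 17 were lower in FL than in delta45, 8 lower in FL and 2 lower in delta45 than in control. FL against KD gave 17 higher and 6 lower, with the median of all genes moved by -0.27, and the cause was not tested. So scaled, 59.8% of all tested genes were called for FL against KD, and 26.7% of these calls were higher. These shares were 55.9 and 29.2% for FL against delta45, 58.2 and 31.8% for FL against control, and 64.7 and 52.6% for delta45 against control. In a fit of the 6 libraries compared, FL against KD gave 2 lower. That fit called 50.6% of all genes it tested, and 49.1% of these calls were higher. Leaving out each library gave, higher and lower, 3 to 4 and 9 to 12 for KD against control, 19 to 22 and 2 to 4 for FL against KD (2 without KD replicate 3 or FL replicate 1), 22 to 23 and 2 to 3 for delta45 against KD, 5 to 7 and 7 to 11 for FL against delta45, 16 to 20 and 5 to 6 for FL against control, and 17 to 20 and 2 to 4 for delta45 against control (2 without control replicate 1 or 2, any delta45 replicate or FL replicate 2). In the last 200 bases of the promoter windows the TGATAA count went from 1 to 0, the window being shorter.

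The labels tie no shared day or culture to a replicate number, and not every same-numbered pair correlated above 0.1, so the numbers were not taken to pair libraries. Over 18 same-numbered pairs the correlation was -0.20 to 0.27, 9 above 0.1, and 11 were best with their own number. Among KD, delta45 and FL all 9 were positive (0.03 to 0.25) and 8 were best with their own number, a hint from the data and not from the design. With the replicate block the counts higher and lower were 19 and 5 for FL against control and 19 and 4 for delta45 against control, and 3 and 10, 20 and 4, 23 and 3, and 5 and 10 for the others, as without it. The SE of Idi1 and Hsd17b7 against KD was 0.35 to 0.38, against 0.09 for Sqle. Both are low in reads and uneven among KD libraries, and the part of depth was not tested.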
